A study of Saccharomyces cerevisiae with 4 samples.

Results

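The cyclin genes CLN1, CLN2, CLN3 and CLB1 to CLB6 and the gene of their kinase partner, CDC28, were followed across 4 arrays of budding yeast RNA. Members were the probe sets whose platform annotation gives these 10 gene symbols, and each gene had 1 probe set, so 10 of the 5449 measured S. cerevisiae genes are described. The 2 wpl1∆::KAN arrays come from strain Y3501, mating type a. The 2 wild type arrays come from strain K699, mating type a. Wpl1, the yeast relative of Wapl, helps cohesin rings come off chromosomes, and the comparison asks how RNA levels differ in its absence. Both strains grew in YP medium with 2% glucose and were harvested in exponential growth at an OD600 of 0.3. The labels do not say whether Y3501 and K699 differ elsewhere in the genome or whether a genotype's 2 arrays are 2 cultures, so the p-values reflect the scatter of 4 arrays, which may be technical. The descriptions in the labels give the arrays of replicate 1 one date tag and those of replicate 2 another, so that each replicate number holds 1 deletion and 1 wild type array. The p-values between replicate numbers therefore rest on the scatter of arrays that share a tag. They do not measure the spread from one date to another.

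Cdc28 is the cyclin-dependent kinase that drives the yeast division cycle, and it is active only when bound to a cyclin. Its own gene is transcribed through the whole cycle, whereas most cyclin genes are transcribed in waves. Cln3 acts first in G1 and leads to activation of SBF (Swi4 with Swi6) and MBF (Mbp1 with Swi6), the transcription factors that switch on CLN1, CLN2, CLB5 and CLB6. Clb3 and Clb4 follow in S phase and early mitosis, and CLB1 and CLB2 are transcribed in G2 and M phase through Mcm1, Fkh2 and Ndd1. In RNA from an unsynchronised culture, more RNA per cell in a phase and a larger share of cells in that phase cannot be told apart.

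Values are log2 expression values made with RMA, a method that corrects background, equalises the arrays and summarises the probes of a set. RAD61, the standard name of WPL1, had log2 values of 3.96 and 4.44 in deletion replicates 1 and 2, against 6.43 and 6.55 in wild type replicates 1 and 2. It was not above background in either deletion array. The deletion level was at least 1.46-fold below wild type, a bound read against the background limit, and the limma adjusted p was 1 without and 0.141 with the replicate number as a block. That limit was the 95th percentile of the 1746 S. pombe (fission yeast) probe sets on the same array, and it lay between 5.79 and 6.10 on the log2 scale. One array stood apart: in deletion replicate 2 the 191 genes of chromosome IX had a median log2 difference from wild type of 0.66, against -0.11 for the other genes. None of the members lies on chromosome IX. All 6 a-cell markers (MFA1, MFA2, STE2, BAR1, STE6 and AGA2) were above background on every array. Of the 5 measured alpha-cell markers, 2 to 3 were above background in the deletion arrays and 3 in each wild type array, and STE3 and HMLALPHA1 were above it on no array. Of the 10 meiosis markers, 3 to 6 were above background in the deletion arrays and 4 to 7 in the wild type arrays. All 10 members were above the background limit on all 4 arrays. CLB6 in wild type replicate 1 came closest to it, above 96.5% of the S. pombe sets.

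No cyclin gene passed the test between the genotypes. Between the replicate numbers, 6 of the 9 cyclin genes were called higher in replicate 2 in the fit of all 4 arrays, where 8.75% of all genes were called higher and 19.7% lower: CLB1 by 2.87-fold, CLB6 by 2.10-fold, CLB2 by 2.03-fold, CLN1 by 1.93-fold, CLN2 by 1.65-fold and CLB5 by 1.53-fold. CLN3, CLB3, CLB4 and CDC28 did not pass. CLB5 was not called with genotype in the model (limma adjusted p = 0.0538), and CLB1 and CLB2 alone were called with all probe sets in the fit. The called genes comprise the pairs of G1, S phase and mitotic cyclins named above as periodic targets of SBF, MBF and Ndd1. Whether these factors had a part in the calls was not tested.

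**Figure D1:**
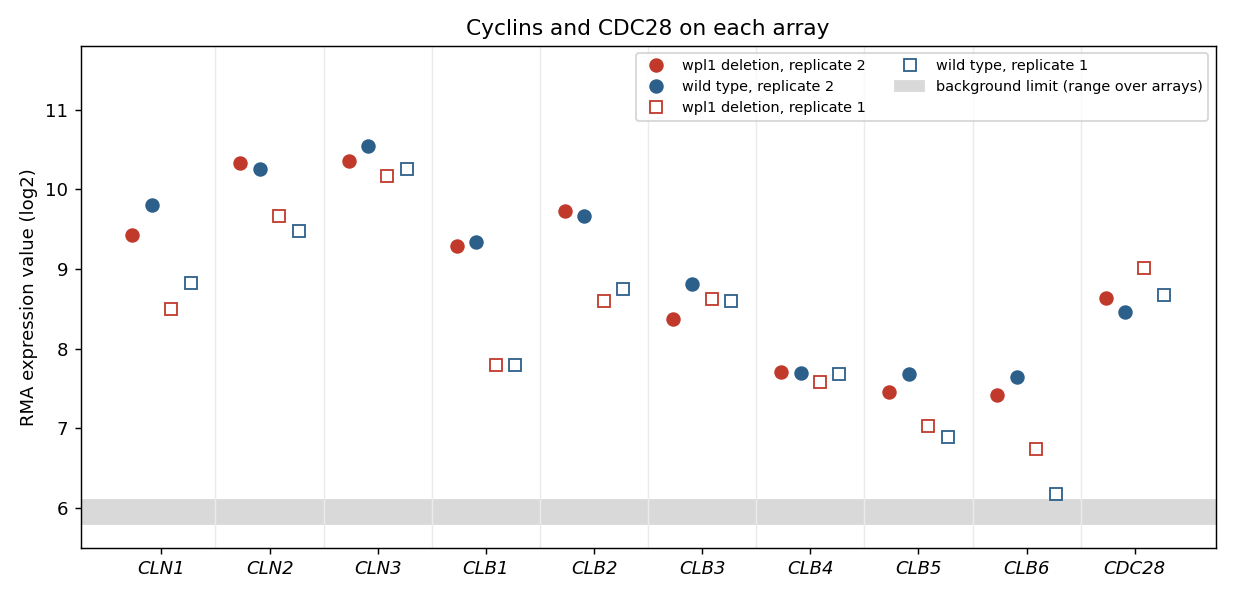
RMA expression values (log2, y axis) of the 9 cyclin genes and CDC28 on each of the 4 arrays, with replicate 2 as filled circles, replicate 1 as open squares, the wpl1 deletion in red and wild type in blue. The grey band is the range of the background limit over the arrays. Both replicate 2 points of CLN1, CLN2, CLB1, CLB2, CLB5 and CLB6 lie above both replicate 1 points. The same holds for CLN3, for CLB4 by a small margin, and for 23.4% of all genes.

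CLN3 encodes the cyclin that starts the G1 programme and links it to cell growth. It had log2 values of 10.36 in the deletion and 10.54 in wild type in replicate 2, against 10.17 in the deletion and 10.25 in wild type in replicate 1. Both replicate 2 values lay above both replicate 1 values, as for 23.4% of all genes, while the genotypes overlapped. The difference between replicate numbers was 0.24 (SE 0.13, 95% interval -0.08 to 0.56, limma adjusted p = 0.218), which did not pass.

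CLN1 and CLN2 encode the G1 cyclins that bring about budding and mark the Cdc28 inhibitor Sic1 for destruction. CLN1 had log2 values of 9.42 in the deletion and 9.80 in wild type in replicate 2, against 8.50 in the deletion and 8.82 in wild type in replicate 1. CLN2 had 10.33 in the deletion and 10.26 in wild type in replicate 2, against 9.66 in the deletion and 9.48 in wild type in replicate 1. For both genes the replicate numbers were separate and the genotypes overlapped. CLN1 was higher in replicate 2 by 0.95 on the log2 scale (SE 0.19, limma adjusted p = 0.0188). CLN2 was higher by 0.73 (SE 0.13, limma adjusted p = 0.0160). CLN1 was the lower in the deletion of each pair and CLN2 the higher, by the amounts given below for the genotypes.

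CLB5 and CLB6 encode the S phase cyclins, which fire replication origins. CLB5 had log2 values of 7.46 in the deletion and 7.68 in wild type in replicate 2, against 7.02 in the deletion and 6.89 in wild type in replicate 1. CLB6 had 7.42 in the deletion and 7.64 in wild type in replicate 2, against 6.74 in the deletion and 6.18 in wild type in replicate 1. Wild type held both the highest and the lowest array of each gene, so the spread between replicate numbers was wider in wild type than in the deletion. CLB6 was higher in replicate 2 by 1.07 on the log2 scale (SE 0.21, limma adjusted p = 0.0194). CLB5 was higher by 0.61 (SE 0.14, limma adjusted p = 0.0275), and with genotype added to the model (the same model serves as the replicate block of the genotype comparison) its adjusted p was 0.0538.

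CLB1 and CLB2 encode the mitotic cyclins that drive spindle assembly and the switch to isotropic bud growth. CLB1 had log2 values of 9.29 in the deletion and 9.33 in wild type in replicate 2, against 7.79 in the deletion and 7.79 in wild type in replicate 1. CLB2 had 9.72 in the deletion and 9.67 in wild type in replicate 2, against 8.60 in the deletion and 8.75 in wild type in replicate 1. Arrays of the same replicate number lay close together for these 2 genes, and the replicate numbers were far apart. CLB1 was higher in replicate 2 by 1.52 (SE 0.12, 95% interval of the fold 2.35 to 3.51, limma adjusted p = 0.00669), which placed it at the 99.8th percentile of the differences of all genes. CLB2 was higher by 1.02 (SE 0.13, 95% interval of the fold 1.64 to 2.52, limma adjusted p = 0.0104).

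CLB3 and CLB4 encode the B-type cyclins that act between these pairs, in S phase and early mitosis. CLB3 had log2 values of 8.37 in the deletion and 8.81 in wild type in replicate 2, against 8.63 in the deletion and 8.60 in wild type in replicate 1. It was the one member whose replicate numbers overlapped. CLB4 had 7.71 in the deletion and 7.69 in wild type in replicate 2, against 7.57 in the deletion and 7.69 in wild type in replicate 1, the smallest range of the 10 members, at 0.13. The CLB3 difference of -0.02 (SE 0.18, 95% interval -0.45 to 0.41) turned to 0.09 with each array centred on its gene median, and to 0.08 with quantile normalization over the genes. That of CLB4 was 0.07 (SE 0.12, 95% interval -0.23 to 0.37), and neither gene passed (limma adjusted p = 0.939 and 0.698). The upper ends of these intervals lie below the estimates of all 6 called cyclin genes.

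CDC28 had log2 values of 8.63 in the deletion and 8.46 in wild type in replicate 2, against 9.01 in the deletion and 8.67 in wild type in replicate 1. It was the one member with both replicate 2 values below both replicate 1 values, a separation seen for 46% of all genes. The difference of -0.29 (SE 0.16, 95% interval -0.69 to 0.10) did not pass (limma adjusted p = 0.216). It lay at the 34.9th percentile of all genes, whose median difference was -0.13.

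Of the 10 members, 0 were called higher and 0 lower in the deletion than in wild type with limma, where 0% of the 5449 genes were called in either direction. At an unadjusted p under 0.05, 0 members passed, against 0.0918% of genes in each direction. The deletion and wild type values overlapped for all 10 members, while 5.32% of genes lay wholly higher and 8.61% wholly lower in the deletion. The median log2 difference of the members was -0.05, against -0.03 over all genes. Of the 10 members 7 lay below 0 and 3 above it, where 2375 of the 5449 genes lay above 0. With the replicate number as a block, which takes the difference between replicate numbers out of the error, 0 members and 0 genes passed, and before adjustment 1.52% of genes passed as higher and 1.34% as lower. SEs of the members ran from 0.23 to 0.68 without the block and from 0.14 to 0.22 with it.

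The genotype difference had the same sign in both replicate numbers for 5 of the 10 members, against 48.2% of all genes. CLN1 was at -0.32 in replicate 1 and -0.38 in replicate 2, with a mean of -0.35 that lay at the 3.1th percentile of all genes. Its interval with the block was -0.70 to 0.004, and its limma adjusted p with the block was 0.996. CDC28 was at 0.34 in replicate 1 and 0.18 in replicate 2, with an interval of -0.10 to 0.62 with the block. CLN2 was at 0.18 in replicate 1 and 0.08 in replicate 2, CLN3 at -0.08 in replicate 1 and -0.18 in replicate 2, and CLB1 at -0.002 in replicate 1 and -0.04 in replicate 2. The remaining 5 genes had opposite signs in the 2 replicate numbers. The widest gap was that of CLB6, at 0.57 in replicate 1 and -0.22 in replicate 2, and each of these values rests on 1 array per genotype. With the block, the 95% intervals of CLB1, CLB2 and CLB4 lay within -0.42 and 0.33, and that of CLB6 ran from -0.40 to 0.74. Without the block the intervals were wider, at -1.70 to 1.66 for CLB1, -1.26 to 1.16 for CLB2 and -0.62 to 0.52 for CLB4. Larger changes of these genes are therefore not excluded.

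**Figure D2:**
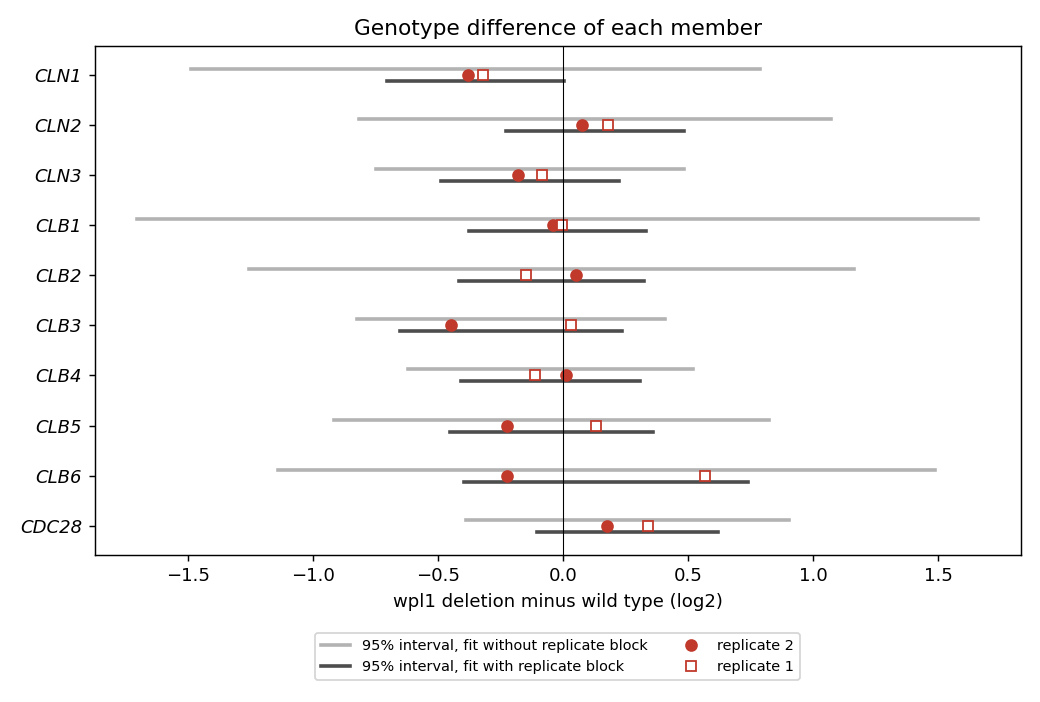
Log2 difference of the wpl1 deletion from wild type (x axis) for each member (y axis), in replicate 2 (filled circles) and replicate 1 (open squares). Bars are 95% intervals of the limma fits without (light grey) and with (dark grey) the replicate number as a block. All 20 bars cover 0, and CLN1 with the block comes closest to leaving it out, with an upper end of 0.004.

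Between the replicate numbers, 6 of the 10 members were called higher in replicate 2 with limma, where 8.75% of the 5449 genes were called higher. For lower calls the counts were 0 members and 19.7% of genes. With genotype in the model 5 members were called higher, against 6.15% of genes called higher and 13.2% called lower. Values did not overlap between replicate numbers for 8 members in the higher and 1 in the lower direction, against 23.4% and 46% of all genes. The median log2 difference of the members was 0.67, against -0.13 over all genes. Each genotype shows the difference by itself. The median over the members was 0.55 in the deletion and 0.79 in wild type, and 9 of 10 members had the same sign in both genotypes, against 76.6% of all genes. A difference of at least 1.5-fold was present for 5 members in the deletion and 6 in wild type, and for 5 in both, where 4.28% of genes reached it in both. CLB1 differed by 1.5 in the deletion and 1.54 in wild type, CLN1 by 0.92 in the deletion and 0.98 in wild type, and CLB2 by 1.12 in the deletion and 0.92 in wild type. CLB6 differed by 0.67 in the deletion and 1.46 in wild type, and CLB5 by 0.43 in the deletion and 0.79 in wild type. Whether these 2 genes differ between the genotypes cannot be tested with 1 array per genotype and replicate number.

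**Figure D3:**
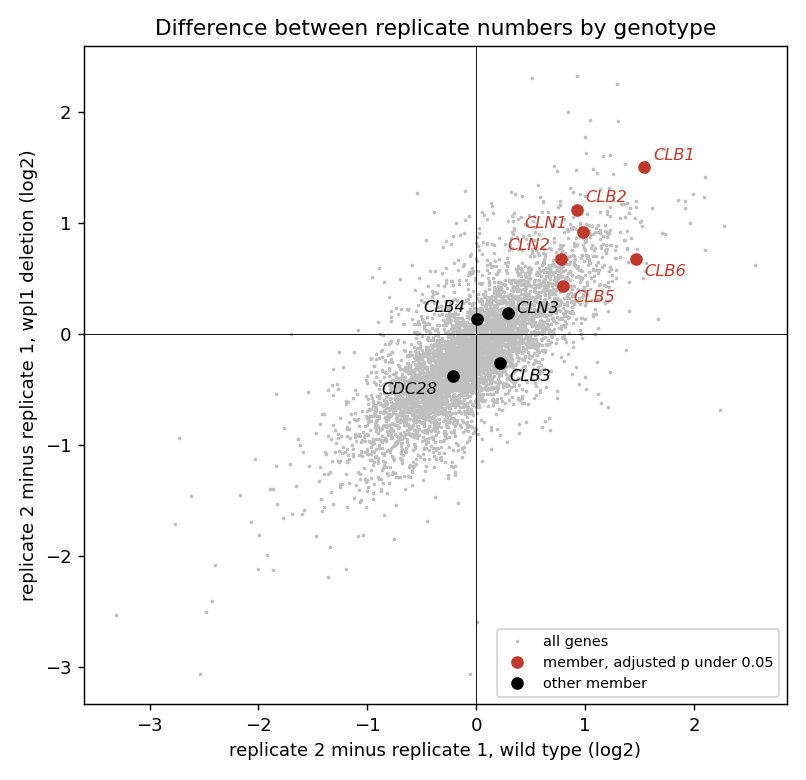
Log2 difference of replicate 2 from replicate 1 in the wpl1 deletion (y axis) and in wild type (x axis), with all 5449 genes in grey, the 6 called cyclin genes in red and the other 4 members in black. The called genes lie in the upper right, from 0.43 to 1.5 in the deletion and from 0.78 to 1.54 in wild type. CLN3, CLB3, CLB4 and CDC28 lie within the bulk of genes.

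Some of these calls depended on the fit. With all 10928 probe sets in the model 2 of the 6 remained, CLB1 and CLB2, and the other 4 had limma adjusted p from 0.0523 to 0.0743. Without deletion replicate 1 CLN1, CLN2 and CLB5 missed the threshold, and without wild type replicate 1 CLN2, CLB5 and CLB6 did. Without deletion replicate 2, the array with the chromosome IX shift, all 6 were called. The all-gene median of -0.13 moved to -0.02 when arrays were centred on the gene median, and genes called higher and lower then made up 14% and 15.2%, against 8.75% and 19.7% without centring. With centring too, 6 members were called higher.

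The B-type cyclin genes include 2 pairs of chromosome neighbours that point towards each other. CLB1 and CLB6 lie next to each other on chromosome VII and CLB2 and CLB5 on chromosome XVI, both pairs convergent in the gene table of assembly R64. Sites between convergent genes are where cohesin is known to gather in yeast. In the deletion minus wild type comparison CLB1 had -0.02 (SE 0.68) beside 0.17 (SE 0.53) for CLB6, and CLB2 had -0.05 (SE 0.49) beside -0.05 (SE 0.35) for CLB5. None of the 4 passed. Between replicate numbers all 4 were higher in replicate 2, by 1.52 and 1.07 in the first pair and 1.02 and 0.61 in the second. The labelled material was double-stranded, so RNA strands are not separated and transcripts that run on into a convergent neighbour cannot be told apart from its own.

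For the 3 members with the widest range over the arrays, the genes with the nearest profiles were sought among 5029 genes above background on all arrays. Likeness was the Euclidean distance between log2 values over the 4 arrays after subtraction of each gene's mean. Nearest to CLB1 were HIS5, of histidine synthesis (distance 0.07), IMD2, an IMP dehydrogenase (0.14), and ECM15 (0.23). HIS5 lies on chromosome IX. Nearest to CLB6 were YGR153W (0.11), GPI15, of GPI anchor synthesis (0.13), and URB1, a ribosome biogenesis factor (0.13). Nearest to CLN1 were SWI4, the DNA-binding subunit of SBF (0.10), LYS14, a regulator of lysine synthesis (0.12), and HDA3, a histone deacetylase subunit (0.12). SWI4 differed between replicate numbers by 0.92 and between genotypes by -0.26, beside 0.95 and -0.35 for CLN1. The values were 0.84 and -0.30 for LYS14 and 0.96 and -0.23 for HDA3. All of these genes were picked for likeness over the same 4 arrays, so their matching differences are no separate result.

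The genes around the cyclins were taken as lists, some of which share genes. In the genotype comparison 0 genes of any list passed, with or without the block. The list medians there ran from -0.27 for M/G1 transcripts to 0.22 for general stress genes. SIC1, the inhibitor of Clb-bound Cdc28, was at 0.10 in replicate 1 and -0.61 in replicate 2, a mean difference of -0.26 (SE 0.30). For PCL9, a cyclin of the Pho85 kinase, the values were -0.10 in replicate 1 and -1.03 in replicate 2, a mean of -0.57 (SE 0.30). Neither passed. All 12 general stress genes lay above 0, as did 2375 of the 5449 genes. The median of the list was 0.11 in replicate 1 and 0.50 in replicate 2, the pair with the chromosome IX shift. Of the 12 genes, HSP26 at 0.93 (SE 0.34) and HSP12 at 0.84 (SE 0.32) had an unadjusted limma p under 0.05, as had 0.0918% of all genes in the higher direction. HSP26 was above background on 2 of the 4 arrays, and these 2 genes did not pass after adjustment.

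Between replicate numbers, the 22 measured genes that control cyclin transcription had 6 higher and 3 lower in replicate 2, and 5 higher and 2 lower with genotype in the model. Over all genes 8.75% were called higher and 19.7% lower, and the 3 lower are a smaller share than that. MBP1, the DNA-binding subunit of MBF, was higher by 0.86 (SE 0.14, limma adjusted p = 0.0126), and SWI6, the subunit shared by SBF and MBF, by 0.85 (SE 0.14, 0.0133). NDD1, the activator of CLB2 and its partners, was higher by 1.04 (SE 0.16, 0.0126). SRL3, a relative of the SBF inhibitor Whi5, fell by 1.13 (SE 0.14, 0.0104). The list median was 0.10, against -0.13 over all genes.

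Of 9 partners, inhibitors and modifying enzymes of Cdc28, 2 were higher and 1 lower in replicate 2, with a median of 0.08. By genotype the median was -0.09 in the deletion and 0.33 in wild type. Over all genes 8.75% were called higher and 19.7% lower, with a median of -0.13. HSL1, a bud neck kinase that counters the Cdc28 inhibitor Swe1, was higher by 0.76 (SE 0.14, limma adjusted p = 0.0151), and CDC37, a chaperone of kinases that include Cdc28, by 0.63 (SE 0.13, 0.0207). CAK1, the kinase that activates Cdc28, fell by 0.75 (SE 0.18, 0.0318). Among 23 genes of the SCF and APC ubiquitin ligases, which mark cyclins and their inhibitors for destruction, 0 were higher and 4 lower, with a median of -0.16. The lower share is near the 19.7% of all genes, and the median near their -0.13, so the count is no result about these ligases. The 4 were the APC subunits DOC1, at -0.81, and SWM1, at -0.49, and the SCF subunits SKP1, at -0.58, and HRT1, at -0.43. With genotype in the model 1 of the list was higher and 1 lower.

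Among other cyclin and kinase families, of 11 genes of the Pho85 kinase and its cyclins, 1 was higher, CLG1 at 0.55 (SE 0.13), and 1 lower, PHO85 itself at -0.86 (SE 0.12). Of 10 genes of the transcriptional kinases and their cyclins, which do not drive the division cycle, 0 passed in either direction in limma, with a median of -0.10. Before adjustment 2 of these passed p under 0.05, CTK2 at 0.45 and KIN28 at -0.42, where 13.7% of all genes passed as higher and 29.3% as lower. In the mitotic exit network 1 of 12 genes was higher, the polo kinase CDC5 at 0.63 (SE 0.12), and 2 were lower, BUB2 at -0.58 and LTE1 at -0.48. The counts of the Pho85 and mitotic exit lists are near the shares of all genes, 8.75% higher and 19.7% lower. With genotype in the model CLG1 and LTE1 missed the threshold, at limma adjusted p of 0.0529 and 0.0767.

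The lists of transcripts known to peak in one phase had medians above the -0.13 of all genes, of which 8.75% were called higher and 19.7% lower. Of 17 G1/S transcripts 5 were higher and 1 lower, with a median of 0.27. The 5 were GIC2, a Cdc42 effector, at 1.28, the cohesin subunits SMC3 at 1.01 and MCD1 at 0.74, the ribonucleotide reductase gene RNR1 at 0.50 and the DNA polymerase gene POL1 at 0.42, and CDC9, DNA ligase, was at -0.48. With genotype in the model 3 were higher and 0 lower. Of 13 G2/M transcripts 3 were higher and 0 lower, with a median of 0.38: MYO1, type II myosin, at 0.98, the haspin-related kinase ALK1 at 0.92, and CDC5. Of 12 M/G1 transcripts 3 were higher and 0 lower, with a median of 0.27: the daughter cell genes DSE1 at 1.05 and DSE2 at 0.94, and CDC6, of origin licensing, at 0.89. By genotype the M/G1 median was -0.01 in the deletion and 0.59 in wild type. The G1/S median was 0.10 in the deletion and 0.25 in wild type, and the G2/M median 0.31 and 0.34. Over all genes it was -0.20 in the deletion and -0.07 in wild type. The 7 measured core histone genes had 0 calls in limma at the adjusted threshold and a median of 0.25, and 2 of them, HTA2 at 0.38 and HHT2 at 0.31, passed an unadjusted p under 0.05.

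Genes of stress and growth also differed between the replicate numbers, beside 8.75% of all genes called higher and 19.7% called lower. Of 12 general stress genes, 0 were higher and 8 lower in replicate 2, with a median of -0.97. HSP42, a small heat shock protein, was 7.58-fold lower, and the trehalose synthesis genes TPS2 and TPS1 were 3.28-fold and 2.71-fold lower. DDR2 was 2.24-fold lower. The summed linear signal of the list was 4252 in the deletion and 2918 in wild type in replicate 2, against 8126 in the deletion and 7571 in wild type in replicate 1. Of 12 ribosome biogenesis genes 3 were higher and 0 lower, NOP56 at 0.76, EBP2 at 0.73 and NOP7 at 0.65, and their summed signal was 24614 in the deletion and 29717 in wild type in replicate 2, against 23564 in the deletion and 23649 in wild type in replicate 1. The a-cell markers had 2 higher and 0 lower, AGA2 at 1.27 and MFA1 at 0.89. Their summed signal was 11949 in the deletion and 11121 in wild type in replicate 2, against 8287 in the deletion and 7466 in wild type in replicate 1. The alpha-cell markers summed to 384 in the deletion and 450 in wild type in replicate 2, against 366 in the deletion and 336 in wild type in replicate 1. Of the alpha-cell markers 1 of 5 was higher and 0 lower, MF(ALPHA)1 at 0.85, which was above background on 3 of the 4 arrays and not in deletion replicate 1. Of the 10 meiosis markers 1 was higher and 0 lower, ZIP1 at 0.71. The part of these differences in those of the cyclin genes was not tested.

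**Figure D4:**
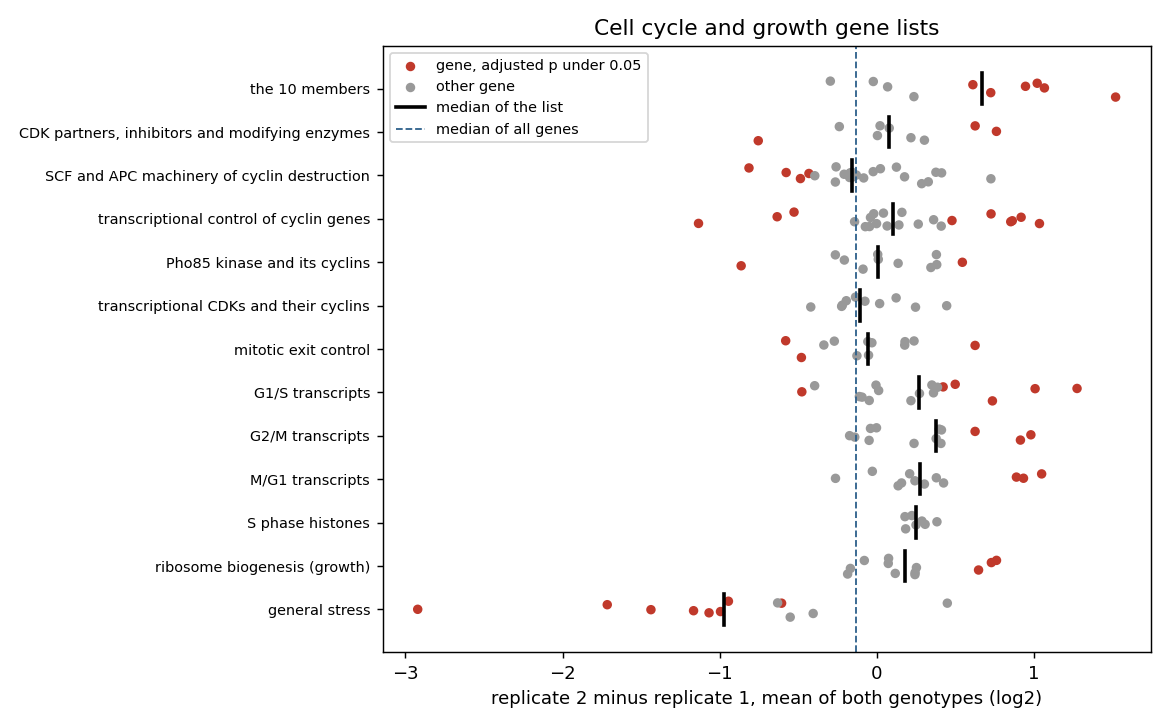
Log2 difference of replicate 2 from replicate 1, averaged over both genotypes (x axis), for the genes of each list (rows), with genes past the limma threshold in red, other genes in grey and list medians as black bars. The blue dashed line is the median of all genes, at -0.13. The 10 members have a median of 0.67, and general stress genes have a median of -0.97.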

How the data were processed

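The deposited values are log2 expression values of 10928 probe sets, which the authors computed by RMA (affy), per the submitters' processing notes, with no version given. RMA equalises arrays, so every difference is relative to other transcripts and a change of total RNA can be hidden. The platform annotation gives 7244 probe sets 1 gene symbol, 1 several and 3683 none. Gene IDs placed 5498 on S. cerevisiae genes (gene table of assembly R64, 12 symbols updated), and averaging probe sets of 47 genes left 5449 genes. HHF2 and HMLALPHA2 of the lists are not analysed here.

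Groups and replicate numbers came from the titles. Deletion minus wild type and replicate 2 minus replicate 1 were each fitted over all genes from all 4 arrays by lmFit and eBayes (limma 3.58.1, R 4.3.3) with no covariate, and a gene was called at a two-sided p under 0.05 after Benjamini-Hochberg adjustment. Shared date tags pair same-numbered arrays, and the model with both terms is the fit with the replicate block. Deviations from the group means correlated at r = 0.747 between same-numbered arrays, across genes. The number of arrays limits the precision. Alternatives were the block, dropping dim genes, keeping all probe sets, the brightest probe set, centring, quantile normalization with and without chromosome IX, a trended robust prior, and each array left out.

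The members and lists were chosen with earlier results of these data known. Named were all members, RAD61, list genes of smallest p (up to 4 per list between replicate numbers and 2 between genotypes, with all called genes where 6 or fewer), and the 3 nearest profiles of the 3 members of widest range. CTK2, KIN28, HTA2 and HHT2 are among those of smallest p. No coordinates or sequences are given.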

Additional observations from a re-analysis of the deposited data

Results flagged for a closer look

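Several differences had opposite signs where the other group or replicate number gave the reverse, each resting on 1 array per genotype and replicate number, so that none of these contrasts was tested. CLB3 differed between replicate numbers by -0.26 in the deletion and 0.217 in wild type. Its deletion minus wild type difference was 0.031 in replicate 1 and -0.446 in replicate 2. For CLB2 that difference was -0.146 in replicate 1 and 0.0536 in replicate 2. For CLB4 it was -0.111 in replicate 1 and 0.0121 in replicate 2. Both S phase cyclin genes shared the order of signs of CLB3, the reverse of that of CLB2 and CLB4. CLB5 had 0.135 in replicate 1 against -0.225 in replicate 2, and CLB6 had 0.568 against -0.222. The absolute change of the genotype difference between replicate numbers had a median of 0.23 over all genes, and CLB6 lay at its 95.3th percentile.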

How the results depend on the processing

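The 6 cyclin calls between replicate numbers kept their direction with centring and both quantile normalizations. Leaving out 1 array could not reverse them, since both replicate 2 values of each gene lay above both replicate 1 values. The other alternatives leave the difference of a gene with 1 probe set unchanged, so they could not change its direction. In all, 6 members were called under the dim-gene filter, the brightest probe set, centring, both quantile normalizations and the trended robust prior. With the replicate block, which puts genotype in the model, 5 members and 1056 genes were called, against 1550 genes without it. With all probe sets, 596 probe sets, 2 members and 21 list genes were called, against 47 list genes over the gene table. With 1 array left out the counts ran from 290 to 1729 genes, 3 to 6 members and 13 to 54 list genes. CLB3 between replicate numbers turned to 0.086 with centring, 0.084 and 0.101 with quantile normalization over all genes and without chromosome IX, and ran from -0.24 to 0.20 with arrays left out. Between genotypes 0 members were called in any alternative, the block included. The count of genes ran from 0 to 3 with arrays left out, and CLB1 turned to 0.0023 with quantile normalization without chromosome IX. Leaving out 1 array mixes genotype with replicate number, and the genotype differences then ran from -0.84 to 0.14 for CLN1, -0.26 to 0.52 for CLN2, -0.27 to 0.013 for CLN3, -0.79 to 0.75 for CLB1, -0.61 to 0.51 for CLB2, -0.12 to 0.016 for CLB4, -0.44 to 0.35 for CLB5, -0.56 to 0.90 for CLB6 and -0.59 to 0.074 for SIC1, with a member median from -0.38 to 0.25. The cause of the other changes was not tested.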

Other observations

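Among the S. pombe probe sets are those of the kinase gene cdc2 and the mitotic cyclin gene cdc13, relatives of CDC28 and of the CLB genes. The cdc2 probe set had log2 values of 4.24 and 3.55 in deletion replicates 1 and 2, against 4.26 and 3.27 in wild type replicates 1 and 2. The cdc13 probe set had 3.97 and 4.94 in deletion replicates 1 and 2, against 4.54 and 4.58 in wild type replicates 1 and 2. Neither was above the background limit on any array.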
